A study of Mus musculus with 24 samples.

Results

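The genes described here are 10 genes of the choroid plexus, Ttr, Enpp2, Folr1, Kl, Clic6, Kcne2, Aqp1, Prlr, Slc4a5 and Otx2, taken by their symbols from the 33000 genes of the count table. They were followed in 24 libraries made from RNA of the frontal cortex by 3'Pool-seq, a method that sequences the 3' ends of pooled, barcoded cDNA. The RNA came from 3 wild-type (WT) C57BL/6 mice and from 3 mice homozygous for the GFAP-IL6 transgene, all 3 months old. The transgene makes astrocytes express the cytokine Il6 from the Gfap promoter, so its expression follows the activity of that promoter. Each mouse gave 4 libraries, with 2 ng or 1 ng of cDNA in tagmentation in each of sets A and B, and the labels do not say how A differs from B. The 4 libraries share the RNA of 1 mouse, so the mouse was the replicate for genotype.

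The choroid plexus is a folded epithelium that hangs in the brain ventricles, secretes cerebrospinal fluid and forms a barrier between blood and fluid. Its cells transcribe the carrier protein gene Ttr at a very high level and share a set of ion transporters, channels and receptors. The tissue is not part of the cortex, but it lies close to it inside the hemisphere, and several of its genes are also transcribed elsewhere in the brain, such as Enpp2 in oligodendrocytes. The question asked of the data was how these genes varied among the 24 libraries and what they did to the comparison of GFAP-IL6 with WT mice.

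Between 1524165 and 12256374 reads were counted per library, and between 7852743 and 37582644 per mouse. Levels are library-scaled counts (CPM) after TMM scaling of the library totals, from the summed libraries of a mouse unless stated, and are compared between mice for 1 gene at a time. Il6 rose in GFAP-IL6 mice by a log2 fold change of 4.06 ± 0.572 (SE, edgeR adjusted p = 0.000783) and Gfap, the astrocyte filament gene, by 2.44 ± 0.185 (SE, edgeR adjusted p = 1.59e-06), in the direction of the labels. Cortical excitatory neuron genes, 10 in all, summed to between 3443 CPM in GFAP-IL6 mouse 3 and 4272 CPM in WT mouse 3. WT mouse 3, which stands apart below, had the fewest counts, 7852743, and GFAP-IL6 mouse 1 the next fewest, 9534116, so depth moved with the levels of these genes, and its part in them was not tested.

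Ttr encodes transthyretin, the carrier of thyroid hormone and retinol in cerebrospinal fluid. Its level was 102 CPM in WT mouse 1, 153 in WT mouse 2 and 4035 in WT mouse 3. In GFAP-IL6 mice 1, 2 and 3 it was 742, 422 and 74.5 CPM. WT mouse 3 stood above every other mouse, the genotypes overlapped, and both the highest and the second lowest levels belonged to WT mice. WT mouse 3 had 39.5-fold the level of WT mouse 1 and 5.43-fold that of GFAP-IL6 mouse 1, the next highest. GFAP-IL6 mouse 1 had 9.97-fold the level of GFAP-IL6 mouse 3.

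The 4 libraries of a mouse lay close together. Ttr spanned 3729 to 4441 CPM in the libraries of WT mouse 3, 94.7 to 118 in those of WT mouse 1 and 139 to 173 in those of WT mouse 2. In GFAP-IL6 mice 1, 2 and 3 the libraries spanned 717 to 762, 389 to 476 and 68.7 to 82.1 CPM. No 2 mice overlapped, and the order of the 6 mice was the same in all 4 sets. Of the sum of squares of log2(CPM + 0.5) over the 24 libraries, 99.7% lay between mice.

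**Figure D1:**
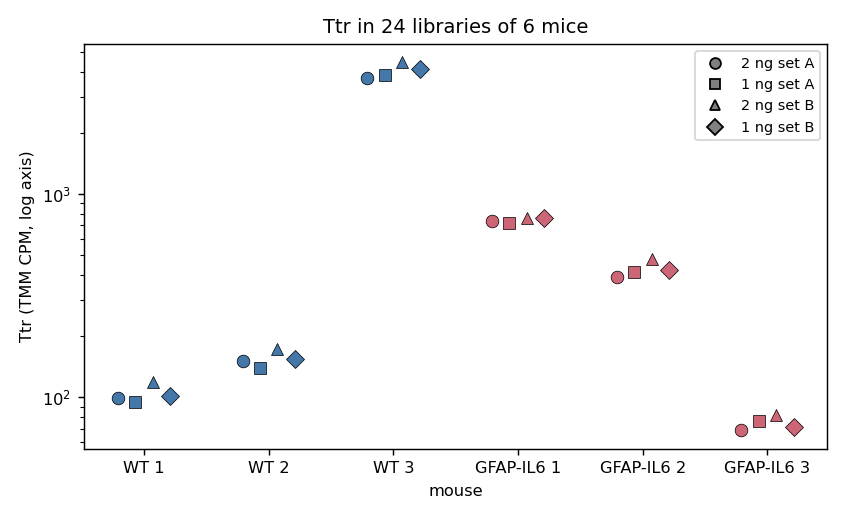
Ttr in each of the 24 libraries, on a log axis in TMM CPM, by mouse, with points for single libraries coloured by genotype. The libraries of WT mouse 3 lie between 3729 and 4441 CPM, and the libraries of different mice do not overlap.

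As a share of all counts, Ttr took 0.392% (95% Wilson interval 0.387 to 0.396) in WT mouse 3 and 0.00765% (0.00737 to 0.00793) in GFAP-IL6 mouse 3, the lowest. The 10 genes together took 0.436% (0.431 to 0.441) of the counts of WT mouse 3 and between 0.0306% and 0.101% in the other 5 mice. The 9 genes other than Ttr took between 0.0406% and 0.0486% in the libraries of WT mouse 3 and between 0.0208% and 0.0308% in the others. The shares of WT mouse 3 were thus above those of all other mice with and without Ttr. Most counts of the 9 genes came from Enpp2, which is also transcribed in oligodendrocytes. Enpp2 had 3117 of their 3461 counts in WT mouse 3 and 8442 of 8626 in GFAP-IL6 mouse 3. The share without Ttr is therefore chiefly that of Enpp2 and says little about the other genes. The Wilson intervals cover counting error only, since PCR reads without molecular identifiers are not independent molecules.

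Folr1 and Prlr encode receptors, for folate and for prolactin. Folr1 was at 1.87, 1.99 and 15.5 CPM in WT mice 1 to 3 and at 3.16, 2.73 and 1.06 CPM in GFAP-IL6 mice 1 to 3. Prlr was at 0.936, 1.22 and 6.29 CPM in the WT mice and at 2.0, 1.29 and 1.04 CPM in the GFAP-IL6 mice. For both receptors WT mouse 3 was the highest mouse and GFAP-IL6 mouse 1 the next. Folr1 lies at chr7:101858331-101870788 (mm10, minus strand) and overlaps Anapc15 on the other strand. Whether the counting used strand is not stated in the sources used here, and Anapc15 was at 19.7 to 22.3 CPM in the 6 mice, lowest in WT mouse 3. Prlr lies at chr15:10177238-10349180 on the plus strand, where the gene model overlapping it, Gm21973, had no counts.

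Clic6, Kcne2, Slc4a5 and Aqp1 encode membrane proteins for ion and water movement: a chloride channel protein, a potassium channel subunit, a sodium bicarbonate cotransporter and a water channel. Clic6 was at 0.208, 2.66 and 9.05 CPM in WT mice 1 to 3 and at 2.63, 3.12 and 0.933 CPM in GFAP-IL6 mice 1 to 3. Clic6 therefore also separated WT mouse 1, with 4 counts, from WT mouse 2, with 48, which Ttr did to a smaller degree, 1.5-fold. Kcne2 was at 0.208, 0.166 and 4.46 CPM in the WT mice, from 4, 3 and 34 counts, and at 0.738, 0.623 and 0.0778 CPM in the GFAP-IL6 mice, from 7, 13 and 3 counts. WT mouse 3 had 21.4-fold the Kcne2 level of WT mouse 1 and 26.8-fold that of WT mouse 2 (95% counting interval 8.44 to 137, with 3 counts in the latter). Kcne2 thus rested on few counts outside WT mouse 3, with 9 of the 24 libraries at 0.

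Slc4a5 and Aqp1 had 11 and 8 counts in WT mouse 3 and at most 8 in any other mouse. Slc4a5 was at 1.44 CPM in WT mouse 3 against 0.0520 and 0.388 in WT mice 1 and 2 and 0 to 0.144 in the GFAP-IL6 mice. Aqp1 was at 1.05 CPM in WT mouse 3, at 0.416 and 0 in WT mice 1 and 2 and at 0.632, 0.0959 and 0.207 in GFAP-IL6 mice 1 to 3. For Aqp1 a WT mouse was thus both the highest and the lowest, and 12 of its 24 libraries had no count.

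Kl encodes klotho, a membrane coreceptor for a fibroblast growth factor, and Enpp2 encodes autotaxin, the secreted enzyme that makes lysophosphatidic acid. Kl was at 0.728, 2.44 and 5.90 CPM in WT mice 1 to 3 and at 1.48, 0.863 and 1.24 CPM in GFAP-IL6 mice 1 to 3. Enpp2 was at 231, 246 and 409 CPM in the WT mice and at 266, 247 and 219 CPM in the GFAP-IL6 mice. WT mouse 3 was highest for both, but for Enpp2 by only 1.66-fold over WT mouse 2 and 1.77-fold over WT mouse 1. Beside Enpp2 stand the oligodendrocyte genes, 10 in all, which summed to 5987, 9228 and 8220 CPM in WT mice 1 to 3 and were thus highest in WT mouse 2, where Enpp2 was not.

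Otx2 encodes a homeodomain transcription factor that choroid plexus epithelium needs. It was at 0.104, 0.166 and 1.44 CPM in WT mice 1 to 3, from 2, 3 and 11 counts, and at 0.422, 0.575 and 0.130 CPM in GFAP-IL6 mice 1 to 3. WT mouse 3 had 13.9-fold the level of WT mouse 1 (counting interval 3.03 to 129) and 8.69-fold that of WT mouse 2 (2.29 to 48.5). Otx2 lies at chr14:48657677-48673819 (mm10, minus strand) and overlaps Otx2os1 on the other strand, which was at 1.44 CPM in WT mouse 3 and at 0 to 0.104 CPM in the other mice, so reads of the pair may not be told apart.

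WT mouse 3 was the highest of the 6 mice for all 10 genes. It was also strictly the highest in all 4 sets for 7 of them, in 3 sets for Slc4a5 and Otx2 and in 2 for Aqp1. In bulk RNA, more cells of a type and more RNA per cell cannot be told apart.

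**Figure D2:**
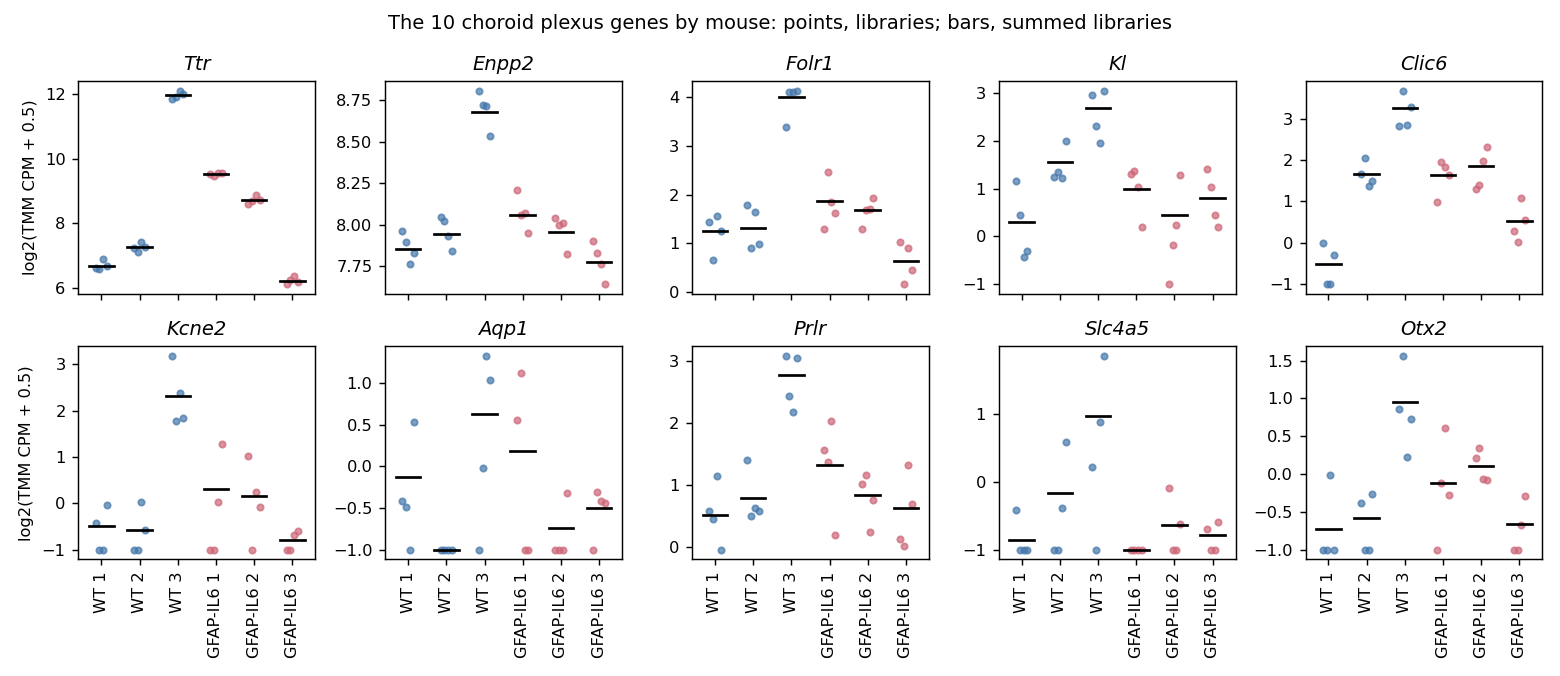
Level of each of the 10 genes, as log2(TMM CPM + 0.5), in the 6 mice, with points for the 4 libraries of a mouse and a bar for their summed counts; the vertical scale differs between panels. The bar of WT mouse 3 is the highest in every panel, from 4035 CPM for Ttr to 1.05 CPM for Aqp1.

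Promoter windows are shown because Otx2 is itself one of the 10 genes, and homeodomain factors of its class bind the letters TAATCC. RefSeq (GRCm38.p6) windows of the 250 bases before the start were used for 6 of the 10 genes, Kl, Aqp1, Slc4a5, Otx2, Prlr and Kcne2, with 12 starts. Ttr, Enpp2, Folr1 and Clic6 had no window here. TAATCC or its reverse complement GGATTA was in 1 of the 12 windows, at an Otx2 start, and in 6.25% of 32851 windows of all genes. The shorter TAATC or GATTA, which every TAATCC contains, was in 2 of the 12, adding Kcne2, and in 19.8% of all windows. The windows of these matches, 5′ to 3′ on the gene's strand with the match in capitals, were chr16:92292139-92292388 (plus strand) for Kcne2 and chr14:48665110-48665359 (minus strand) for Otx2.
Kcne2: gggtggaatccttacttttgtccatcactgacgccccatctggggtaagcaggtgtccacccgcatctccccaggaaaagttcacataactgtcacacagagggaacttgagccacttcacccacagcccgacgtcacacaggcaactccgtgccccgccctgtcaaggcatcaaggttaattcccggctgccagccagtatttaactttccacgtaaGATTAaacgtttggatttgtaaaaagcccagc
Otx2: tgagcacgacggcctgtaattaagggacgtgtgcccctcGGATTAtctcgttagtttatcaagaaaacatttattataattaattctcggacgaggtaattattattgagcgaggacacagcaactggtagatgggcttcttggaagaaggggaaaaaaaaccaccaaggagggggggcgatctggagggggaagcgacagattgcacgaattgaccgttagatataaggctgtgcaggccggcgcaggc
The letters GATTA began 32 bases before the Kcne2 start. At that Otx2 start they began 210 bases before it, as the last letters of GGATTA. A match is a description of the letters only.

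Differences between mice of 1 genotype were tested against the spread between libraries with edgeR's F test on all 24 libraries, with mouse and set in the model. Such a test compares RNA samples and not conditions. Of the 10 genes, 7 passed the filter on low counts, and Aqp1, Slc4a5 and Otx2 did not. Kl, Kcne2 and Prlr passed it only with WT mouse 3 included, where they were highest. The filter thus partly fixed their WT differences, which are no separate support in the counts below. Among the WT mice, all 7 passed at an adjusted p under 0.05, beside 22.8% of all 13249 genes tested. The span from the lowest to the highest WT mouse was 39.2-fold for Ttr (edgeR adjusted p = 2.24e-198), 38.1-fold for Clic6 (2.26e-13), 24.7-fold for Kcne2 (6.53e-08) and 8.02-fold for Folr1 (2.23e-15). It was 7.60-fold for Kl (edgeR adjusted p = 3.30e-05), 6.5-fold for Prlr (2.96e-06) and 1.77-fold for Enpp2 (3.55e-44). Spans of at least 2-fold were found for 6 of the 7, beside 2.05% of all genes, and spans of at least 16-fold for Ttr, Clic6 and Kcne2, which are 3 of 7 such genes among all those tested (0.0528%). Ttr had the smallest p of all genes and the second largest span.

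These WT differences rested on mouse 3. With WT mouse 3 left out, 4 of the 7 still passed the filter, and 2 of these differed between WT mice 1 and 2, beside 9.19% of all genes. They were Ttr, 1.5-fold (edgeR adjusted p = 5.77e-21), and Clic6, 11.9-fold (2.21e-05). Enpp2 was within 1.07-fold (edgeR adjusted p = 0.107) and Folr1 within 1.08-fold (0.920). Without WT mouse 1, the edgeR adjusted p of Kl rose to 0.0523.

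Among the GFAP-IL6 mice, 5 of the 7 differed, beside 23.5% of all genes, and mouse 3 was the lowest for all 5. The spans were 9.998-fold for Ttr (edgeR adjusted p = 2.79e-146), 7.23-fold for Kcne2 (0.0365), 3.20-fold for Clic6 (0.00147), 2.92-fold for Folr1 (0.00313) and 1.22-fold for Enpp2 (3.47e-09). Spans of at least 2-fold were found for 4 of the 7, beside 1.25% of all genes, and none reached 16-fold, which 1 gene (0.00755%) did. Kl (1.76-fold, edgeR adjusted p = 0.595) and Prlr (1.95-fold, 0.394) missed the threshold. Without GFAP-IL6 mouse 3, Ttr alone differed between mice 1 and 2, 1.75-fold (edgeR adjusted p = 1.64e-61). The Kcne2 call was lost without any 1 of the 3 mice, with edgeR adjusted p of 0.0515, 0.0663 and 0.914 without mice 1, 2 and 3, and without 3 of the 4 sets. The Folr1 call was lost without the 1 ng libraries of set A (2.19-fold, edgeR adjusted p = 0.0922). GFAP-IL6 mouse 3 was the deepest mouse, with 37582644 counts, and the part of depth in its low levels was not tested.

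Library preparation was compared within mice. With 2 ng set against 1 ng of cDNA in each mouse, 1 of the 7 differed, Enpp2, by a log2 fold change of 0.09 ± 0.0277 (SE, edgeR adjusted p = 0.0112, and 0.0629 without GFAP-IL6 mouse 3), beside 26.1% of all genes. Between sets A and B, Ttr was lower in A by -0.14 ± 0.0269 (log2, SE, edgeR adjusted p = 6.5e-05) and Enpp2 higher in A by 0.14 ± 0.0277 (edgeR adjusted p = 0.000124), the only 2 of the 7 to differ, beside 26.2% of all genes. The 2 sets thus shifted Ttr and Enpp2 in opposite directions.

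The other genes followed Ttr over the 6 mice to different degrees. Correlations were taken on log2(CPM + 0.5) for 9 relations, each with an exact permutation test over 720 pairings, two-sided and unadjusted. Folr1 kept the order of Ttr in all mice (r = 0.955, exact p = 0.00139; rho = 1.0, exact p = 0.00278), as did Enpp2 (r = 0.937, exact p = 0.00139; rho = 1.0, exact p = 0.00278). Kcne2 had r = 0.968 and Prlr r = 0.941, each with exact p = 0.00278, and both had rho = 0.943 (exact p = 0.0167). For Otx2, r was 0.964 (exact p = 0.0111) and rho 0.886 (exact p = 0.0333). For Clic6, r was 0.869 (exact p = 0.0278) while rho, 0.771, missed the threshold (exact p = 0.103). Without WT mouse 3, r was 0.891 for Otx2 (exact p = 0.0667) and 0.713 for Clic6 (exact p = 0.183), and that of Clic6 also missed the threshold without GFAP-IL6 mouse 2 (exact p = 0.0667) or mouse 3 (exact p = 0.1).

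The 3 relations of Kl, Aqp1 and Slc4a5 had r between 0.696 and 0.720 (exact p of 0.0944, 0.111 and 0.110) and rho of 0.6, 0.543 and 0.314 (exact p of 0.242, 0.297 and 0.564). Without WT mouse 3 and GFAP-IL6 mouse 3, the mice farthest from the median of Ttr, r over the other 4 mice was 0.996 for Folr1, 0.957 for Kcne2, 0.915 for Prlr, 0.908 for Enpp2, 0.882 for Otx2 and 0.701 for Clic6. It was 0.0573 for Kl, 0.339 for Aqp1 and -0.42 for Slc4a5, whose pooled values rested on those 2 mice.

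Over the 24 libraries, which are nested in the 6 mice, r with Ttr was 0.907 for Folr1 and 0.893 for Enpp2, ranks 1 and 3 among 13240 other genes, and 0.817, 0.811 and 0.802 for Clic6, Kcne2 and Prlr, ranks 16, 17 and 22. Kl was at 0.554, rank 407. The ranked genes had passed the filter on low counts and had a mean of at least 1 CPM. Kl, Kcne2 and Prlr passed that filter only with WT mouse 3 included, where Ttr was highest too. Their ranks are thus partly fixed by the filter and are no separate support. After the mean of each mouse was taken away, r between library residuals was 0.376 for Folr1, -0.36 for Enpp2 and between -0.22 and 0.11 for the other 7 genes. The co-variation was thus seen between mice. Between libraries of 1 mouse it could not be judged for genes of few counts, such as Kcne2, with 3 or fewer in 18 of 24 libraries. For Ttr and Enpp2 the residuals also hold their opposite shifts between sets A and B. These values are descriptions, since libraries share their mouse and set.

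Outside the 10 genes, the 10 genes most like Ttr over the 24 libraries, among those with a mean of at least 1 CPM, were Steap1 (r = 0.894), Wdr86 (0.886), Lrrc8a (0.877), Iqsec1 (0.856), Camk2n1 (0.847), Trak2 (0.838), Gnb1 (0.836), Kcnj13 (0.836), Cox8b (0.834) and A830010M20Rik (0.827). Steap1, a metalloreductase gene, was at 0.520, 0.554 and 6.82 CPM in WT mice 1 to 3 and at 1.37, 0.815 and 0.259 CPM in GFAP-IL6 mice 1 to 3. Kcnj13, an inwardly rectifying potassium channel gene, was at 4.0, 3.71 and 19.7 CPM and at 6.43, 4.07 and 4.38 CPM in the same order. Both are in a list of 25 further choroid plexus genes. Whether Steap1 would pass the filter on low counts without WT mouse 3 was not examined. Camk2n1, which encodes an inhibitor of the neuronal kinase CaMKII, was at 713, 710 and 1111 CPM and at 877, 768 and 775 CPM, so the likeness to Ttr was not limited to choroid plexus genes.

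Of the 25 further choroid plexus genes, 17 were tested between mice. Among WT mice 10 of them differed (58.8%, beside 22.8% of all genes). WT mouse 3 was the highest in all 10, beside 1298 of the 3016 genes that differed among all genes. The filter on low counts may have fixed part of this, so the 10 are no separate support. Wfdc2 was at 6.82 CPM in WT mouse 3 and at 0.166 to 1.05 CPM in the other mice. Steap1 was at 6.82 CPM and at 0.259 to 1.37 CPM. Their summed level was 98.3, 110 and 198 CPM in WT mice 1 to 3 and 98.7 to 110 CPM in the GFAP-IL6 mice. Of the 4 with the highest mean level, 1500015O10Rik was at 27.9 CPM in WT mouse 3 against 6.45 and 10.1 in WT mice 1 and 2 (edgeR adjusted p = 6.13e-16) and Rdh5, a retinol dehydrogenase gene, at 14.4 against 5.25 and 5.32 (edgeR adjusted p = 1.32e-06). Cab39l was at 35.8 CPM in WT mouse 3 against 31.6 and 29.2 (edgeR adjusted p = 0.213), and Igfbp2 at 22.0 against 18.4 and 20.8 (0.427). Among GFAP-IL6 mice 3 of the 17 differed (17.6%, beside 23.5% of all genes), with mouse 3 the lowest in 2 of the 3.

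The median of WT mouse 3 minus the mean of the other WT mice, on the log2(CPM + 0.5) scale, was 2.67 for the 7 choroid plexus genes tested and 1.21 for the 17 further ones, beside -0.00307 for all 13249 genes. Of the 7, Kl, Kcne2 and Prlr passed the filter only with WT mouse 3 included. Whether all of the 17 would pass without that mouse was not examined. Lists for tissues next to the plexus or the cortex had lower medians. The median was 0.39 for 9 ependymal genes (cells that line the ventricles), -0.64 for 12 leptomeningeal genes and -0.50 for 8 striatal neuron genes. WT mouse 3 was the highest WT mouse in none of the 6 ependymal, 6 leptomeningeal and 8 striatal genes that differed among WT mice. It was the highest in 6 of the 7 cortical excitatory neuron genes, 4 of the 10 oligodendrocyte genes and 1 of the 4 astrocyte genes that differed. The difference between lists was not tested.

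The summed level of the 12 ependymal genes was 32.8, 68.4 and 56.7 CPM in WT mice 1 to 3 and 46.6 to 50.3 CPM in the GFAP-IL6 mice. Striatal genes summed to 318, 551 and 309 CPM in WT mice 1 to 3, highest in WT mouse 2. The 5 blood genes, chiefly haemoglobin, summed to 751, 756 and 1034 CPM in WT mice 1 to 3 and to 702, 958 and 734 CPM in GFAP-IL6 mice 1 to 3, and 4 of them differed among WT mice with mouse 3 the highest. Blood and cortical excitatory neuron genes thus moved with the choroid plexus genes in WT mouse 3, and their part in the result was not tested. The medians were 0.46 for the 5 blood genes, 0.26 for 10 oligodendrocyte genes, 0.25 for 9 cortical excitatory neuron genes and -0.00902 for 8 astrocyte genes.

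**Figure D3:**
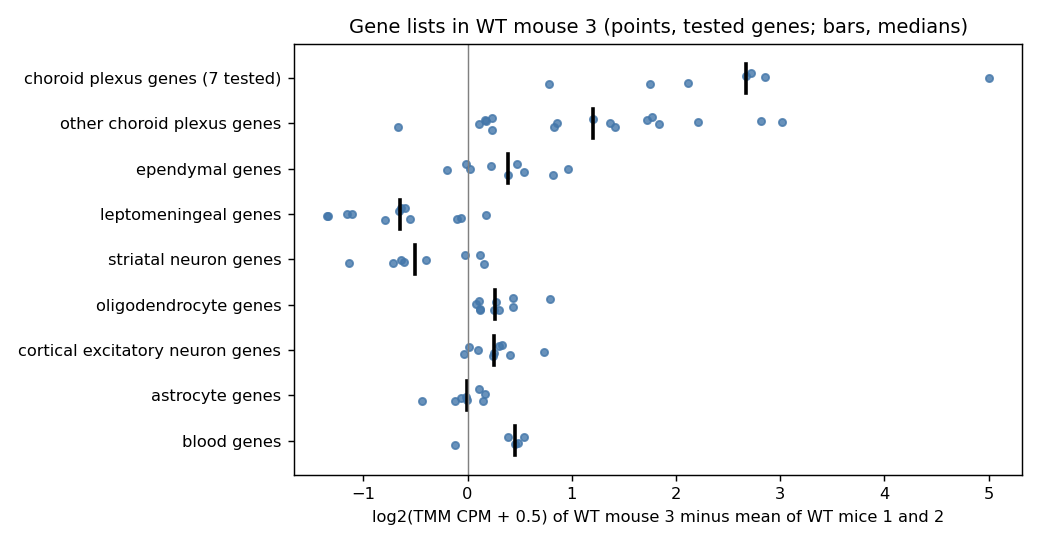
Difference of WT mouse 3 from the mean of WT mice 1 and 2, on the log2(TMM CPM + 0.5) scale, for the tested genes of 9 lists, with a point per gene and a bar at the median. The median is 2.67 for the choroid plexus genes and 1.21 for the further choroid plexus genes, and the other lists have medians from -0.64 to 0.46.

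Between genotypes, with the libraries of a mouse summed and n = 3 mice a group, none of the 7 tested genes was called, beside 1.23% of all 14621 genes (180 genes whose edgeR adjusted p was under 0.05 with a log2 fold change above 1 in size). Of these, 4, or 0.0274% of the genes tested, were lower in GFAP-IL6 mice. DESeq2 called none of the 7 either, beside 1.27% of all genes, and 1 of the 7, Kl, was under an unadjusted edgeR p of 0.05, beside 8.75% of all genes. Ttr was at 1430 ± 2256 CPM (SD, n = 3) in WT and 413 ± 334 (SD, n = 3) in GFAP-IL6 mice, a log2 fold change of -1.79 ± 0.994 (SE, edgeR adjusted p = 0.678). The WT SD was larger than the WT mean. DESeq2 gave Ttr a log2 fold change of -1.80 with a wider SE, 1.48 (adjusted p = 0.955). On the log scale the difference was smaller, with a mean log2 difference of -0.48 and a limma voom log2 fold change of -0.41 ± 0.673 (SE, adjusted p = 0.9001) over the 24 libraries. The voom fit used 1 correlation between libraries of a mouse for all genes, while 99.7% of the Ttr sum of squares lay between mice. Its SE and p thus do not measure the spread between mice alone. With no filter on low counts, edgeR's estimate of the spread of Ttr became far smaller and it called Ttr (adjusted p = 3.71e-69) and Folr1 (adjusted p = 8.61e-05) lower in GFAP-IL6 mice.

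The other fitted log2 fold changes were all below 0 as well. They were -1.66 ± 1.07 for Kcne2 (SE, edgeR adjusted p = 0.743), -1.41 ± 0.670 for Folr1 (0.577), -1.22 ± 0.554 for Kl (0.543) and -0.85 ± 0.594 for Prlr (0.771). Clic6 was at -0.71 ± 0.749 (SE, edgeR adjusted p = 0.880) and Enpp2 at -0.27 ± 0.164 (0.728). The median of the 7 was -1.22 beside -0.00691 for all genes tested. For the 10 genes, exact permutation tests of the mean log2 level over 20 splits, two-sided, gave p from 0.3 to 0.9. With 3 against 3 mice this test cannot give less than 0.1.

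The sign of these values turned on 1 mouse. Without WT mouse 3 the log2 fold change was 1.69 ± 0.558 for Ttr (SE, edgeR adjusted p = 0.251), 1.05 for Kcne2, 0.58 for Clic6, 0.34 for Prlr, 0.16 for Folr1 and 0.0356 for Enpp2, with edgeR adjusted p from 0.814 to 0.951 for these 5. Kl stayed below 0 at -0.43 (edgeR adjusted p = 0.860). So 6 of 7 changed sign and none was called, beside 1.16% of all genes.

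**Figure D4:**
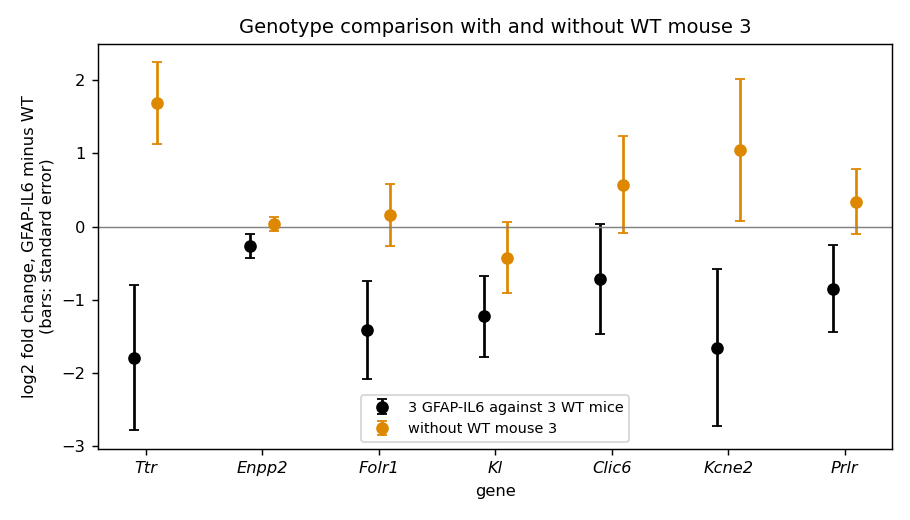
Fitted log2 fold change of GFAP-IL6 minus WT mice for the 7 tested genes, with all 6 mice and without WT mouse 3. Bars are standard errors taken from edgeR's F statistic. With all mice every point is below 0, from -1.79 for Ttr to -0.27 for Enpp2, and without WT mouse 3 every point except that of Kl is above 0.

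In single sets the same held for Ttr, and there the call itself turned. With all 6 mice its log2 fold change lay between -1.85 and -1.76 in the 4 sets, with edgeR adjusted p from 0.521 to 0.715. Without WT mouse 3 it was called higher in GFAP-IL6 mice in 2 of 4 sets, 1.76 ± 0.401 with 1 ng in set A (SE, edgeR adjusted p = 0.0153) and 1.56 ± 0.390 with 2 ng in set B (SE, edgeR adjusted p = 0.0397). Without WT mouse 1 it was called lower in 2 of 4 sets, -2.33 ± 0.577 with 2 ng in set A (SE, edgeR adjusted p = 0.0417) and -2.41 ± 0.596 with 2 ng in set B (SE, edgeR adjusted p = 0.0424). The set with 2 ng in B thus gave a call in either direction according to which WT mouse was left out. These fits hold only 2 WT mice, and the 4 sets are repeats of the same RNA. In the summed libraries neither fit called Ttr. There the edgeR adjusted p was 0.251 (SE 0.558) without WT mouse 3 and 0.308 (SE 0.835) without WT mouse 1. With all 6 mice, 0.681% of all genes were called with 2 ng and 0.774% with 1 ng in set A, and 0.744% with 2 ng and 0.755% with 1 ng in set B.

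The genes called between genotypes were then compared with and without WT mouse 3 and with these genes as covariates. Of the 180 genes called, 161 (89.4%) were also called without WT mouse 3, which made up 161 of 174 calls in that fit. With the log2 level of Ttr as a covariate, 178 of the 180 (98.9%) were among 198 called (1.32% of all genes), and with the mean level of the 7 genes as a covariate 174 (96.7%) were among 185 called. The log2 fold changes of the 180 moved by a median absolute amount of 0.0756, 0.0124 and 0.0321 in these 3 fits. Leaving out another mouse gave 106 calls (0.714% of all genes, without GFAP-IL6 mouse 3) to 201 calls (without GFAP-IL6 mouse 1). The median genotype log2 fold change of the further choroid plexus genes, 18 of which were tested, was -0.34.

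**Figure D5:**
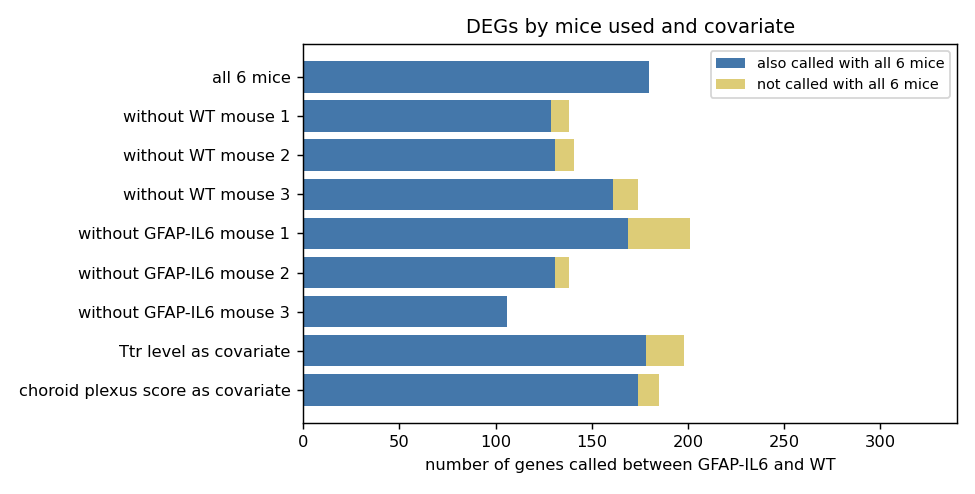
Number of genes called between GFAP-IL6 and WT mice with all 6 mice, without each mouse and with Ttr or the choroid plexus score as covariate, split by whether the gene was also called with all 6 mice. The fit with all mice calls 180 genes and the fit without WT mouse 3 calls 174, of which 161 are shared.

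The 4 genes called lower in GFAP-IL6 mice, named here after their values were seen, were Hpgd, Sgsm1, Upk1b and Snord49b. The highest WT mouse was mouse 2 for the first 3 and mouse 1 for Snord49b, so none had its highest WT level in mouse 3. Of the 272 genes that differed at least 2-fold among WT mice, mouse 3 was the highest for 123, mouse 2 for 89 and mouse 1 for 60.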

How the data were processed

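The authors made 3'Pool-seq libraries, trimmed polyA from the reads, mapped them to the mouse genome mm10 by STAR 2.4 and summed the uniquely mapped reads over GENCODE vM6 genes by featureCounts 1.6.3, per the study's methods. The submitters' processing notes name the build hg19, but the gene identifiers are mouse. Raw counts of each gene in each library were deposited, unnormalized. Of the 33000 genes, 20629 had at least 1 count.

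Groups came from the labels, and the 10 genes were matched by symbol. The members and gene lists were chosen with earlier results of these data known, so their counts are not independent support. Named genes were the 10 members, the 10 other genes with the largest r with Ttr over 24 libraries, and the 4 further choroid plexus genes of highest mean CPM. edgeR 4.0.16 (R 4.3.3) quasi-likelihood tests used TMM and filterByExpr, with p adjusted by Benjamini-Hochberg over all genes tested. The SE of an edgeR value is its absolute log2 fold change divided by the square root of the F statistic. Correlations and exact permutation tests used Python 3.11.15 with scipy 1.17.1. Genotype p-values measure the spread between up to 3 mice a group, except those of voom over the 24 libraries. The p-values between mice measure the technical spread between libraries. Alternatives were DESeq2 1.42.0, its size factors, other filters, limma 3.58.1 voom, single cDNA amounts or set letters, covariates, blocks and leaving out mice. Positions are from GENCODE vM21. Tests were checked on simulated data.

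The methods name DESeq2 for differential expression, which was run as an alternative here.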

Additional observations from a re-analysis of the deposited data

How the results depend on the processing

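The limits are these: 3 mice a genotype, of which 1 sets the WT mean of most of these genes; counts of 34 or fewer in any mouse for Kcne2, Aqp1, Slc4a5 and Otx2; and a depth per mouse from 7852743 to 37582644. Of 642 alternative values, 578 were scored as unchanged, in direction and side of the threshold or as counts within 1.5 times. Of the rest, 23 lost and 4 gained a call without a change of sign, and 18 counts moved. Another 19 changed sign, with Ttr in 2 sets without WT mouse 3 also gaining a call. Sign was not scored for values between cDNA amounts or between sets A and B that were called in neither fit. Such values are among the 578 even where the sign turned, and the 19 leave them out. An example is Folr1 between 2 ng and 1 ng, with a log2 fold change of 0.137, and -0.103 without the mouse block. Leaving out 1 mouse at a time, the genotype log2 fold change ranged from -2.53 to 1.69 for Ttr, -2.34 to 1.05 for Kcne2, -1.38 to 0.58 for Clic6, -1.33 to 0.34 for Prlr, -1.91 to 0.16 for Folr1 and -0.42 to 0.0356 for Enpp2, with each upper value from the fit without WT mouse 3. For Ttr in single sets it ranged from -2.53 to 1.62 (2 ng A), -2.48 to 1.76 (1 ng A), -2.49 to 1.56 (2 ng B) and -2.57 to 1.69 (1 ng B). With same-numbered mice as a replicate block it was 0.50 for Ttr (edgeR adjusted p = 0.969) and 0.34, 0.49, 0.34 and 0.46 in single sets, with 150 genes called in the summed libraries and 60 in place of 91 in the 2 ng set B. Same-numbered mice share only a number, their deviations from the group means correlated at -0.0466, -0.035 and -0.0421, and no mouse correlated best with its own number. With the mean level of the 7 genes as a covariate it was 0.53 for Ttr, 0.38 for Clic6 and 0.41 for Kcne2. The cause was not tested for the block and the covariate. Leaving out 1 mouse, r of Slc4a5 with Ttr ranged from -0.24 (without WT mouse 3) to 0.897. Without a filter on low counts, 2 of the 10 genes were called between genotypes, Ttr and Folr1, and 245 genes in all, where edgeR's prior degrees of freedom became infinite in place of 10.9 and the quasi-likelihood dispersion of Ttr fell to 0.746 from 73.0. At an adjusted p of 0.1 with an absolute log2 fold change of 1.5, 97 genes were called. With at least 10 counts in every library, 2 of the 10 genes were left to test, and both differed among WT and among GFAP-IL6 mice. Leaving out 1 mouse at a time gave 106 to 201 genes and 0 of the 10 genes for the genotype, 46 to 102, 52 to 115, 45 to 114 and 45 to 113 genes in single sets (2 ng A, 1 ng A, 2 ng B and 1 ng B), 1215 to 2671 genes and 2 to 7 of the 10 among WT mice, 1560 to 2097 genes and 1 to 4 of the 10 among GFAP-IL6 mice, and 4 to 6 relations with Ttr. The count of 3016 among WT mice became 1519 without mouse 1 and 1215 without mouse 3, and the count of 3110 among GFAP-IL6 mice became 1560 without mouse 1 and 1715 without mouse 3. Without the mouse block, 2160 genes in place of 3477 differed between sets A and B. The alternatives in single sets were chosen after seeing the data.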
